A study of Homo sapiens with 6 samples.

Results

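The genes examined here encode the small-subunit processome and the other factors that cut, modify and export the precursor of 18S rRNA, the RNA of the small (40S) ribosomal subunit. Of the 48 symbols listed, CIRH1A and UTP4 name the same gene, which leaves 47 genes, and 46 of these were found by exact symbol in the deposited table, CIRH1A under UTP4. UTP11L was not found by that symbol. They were 46 of 26822 gene symbols in the table and 46 of the 13264 symbols with a mean FPKM of at least 1. FPKM is the number of fragments scaled to transcript length and to the mapped library size, so levels can be compared between genes per length. For each gene the change is log2 of the siPAX9 FPKM over the siNT FPKM.

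MCF10A is a non-cancerous epithelial cell line of the human breast. The 6 samples were 3 transfected with a non-targeting siRNA (siNT) and 3 with a pool of siRNAs against PAX9 (siPAX9), each at 30 nM for 72 hours, and poly(A)+ RNA was sequenced. The siRNA acts only for a time and on 1 cell line, and the control cells carry the same transfection reagent. The authors combined the 3 samples of a group into 1 FPKM per locus, so the values used here carry no error between samples, and no test of a difference was made from them. The authors' own test columns were not used. The comparison asks which mRNAs for making the small subunit differed once PAX9, a transcription factor of RNA polymerase II, was depleted.

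PAX9 itself was at 2.80 FPKM in siNT and 0.325 FPKM in siPAX9, which is 8.60-fold lower. Its row carries the coordinates of a long locus (chromosome 14, 37126773 to 37642998 on UCSC hg19) that extends past the gene, and SLC25A21 has a row of its own with the same coordinates. Basal epithelial markers were present, among them KRT5 at 1558 FPKM in siNT and 1807 FPKM in siPAX9. Of the 8 markers of these cells, 5 were higher in siPAX9 and 3 lower. CDH1, the epithelial cadherin, was at 45.3 and 124 FPKM, and the keratin KRT6A at 368 and 959 FPKM. VIM, the intermediate filament vimentin, was at 301 and 53.5 FPKM, and TP63, a basal transcription factor, at 35.4 and 25.3 FPKM. The part of these markers in the changes of the processome genes was not tested. Defining markers of other cells were low, with COL3A1 listed at 0 in both groups, PTPRC at 0.0166 FPKM in siNT and 0.0922 FPKM in siPAX9, and ESR1 at 0.056 and 0.317 FPKM. COL1A1 was at 0.454 and 4.13 FPKM and PECAM1 at 2.58 and 0.495 FPKM. Over all 13264 genes the median log2 change was -0.07.

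The small-subunit processome is the large particle that forms on the nascent pre-rRNA in the nucleolus. Its UTP-A and UTP-B complexes and the U3 small nucleolar ribonucleoprotein bind first, and further factors then fold the RNA and place the ribosomal proteins. Nucleases cut away the external and internal transcribed spacers, helicases and GTPases drive the particle apart, and the pre-40S particle that remains is finished in the cytoplasm. The factors are needed together, and a shortage of many single ones is known to slow 18S rRNA production.

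Most of these mRNAs were slightly lower after PAX9 depletion, and few differed by much. Of the 46 genes, 42 (91.3%) were lower in siPAX9 (95% Wilson interval 79.7 to 96.6%, which covers counting error over genes only), against 55.3% of all 13264 genes and 57.3% of the 8942 genes within the range of mean FPKM that the 46 genes cover. Their median log2 change was -0.30, or 18.8% lower than in siNT, and their quartiles were -0.49 and -0.14. The quartiles of all genes lay further apart, at -0.41 and 0.29. Summed over the 46 genes, the level was 1084 FPKM in siNT and 829 FPKM in siPAX9, a ratio of 0.765. The sum over all 13264 genes was also lower, at 608128 FPKM in siNT and 506544 FPKM in siPAX9, a ratio of 0.833. Over the 8942 genes within the same range of mean FPKM, the ratio of the sums was 0.928.

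Large differences were no more frequent than in the background. Only NOB1 was at least 2-fold lower, 1 of 46 genes or 2.17%, against 6.90% of all genes. None of the 46 was at least 2-fold higher, against 6.82% of all genes. At least 1.5-fold lower were 8 of the 46 genes (17.4%), close to the 16.7% of all genes and the 14.8% of genes within the same range of mean FPKM. None was at least 1.5-fold higher, against 13.7% of all genes. The share of lower genes was thus above the background, and the share at least 1.5-fold lower was near it. In the cumulative plot the curve of the 46 genes runs below that of all genes down to about 1.5-fold lower and climbs steeply past it between there and 0.

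**Figure D1:**
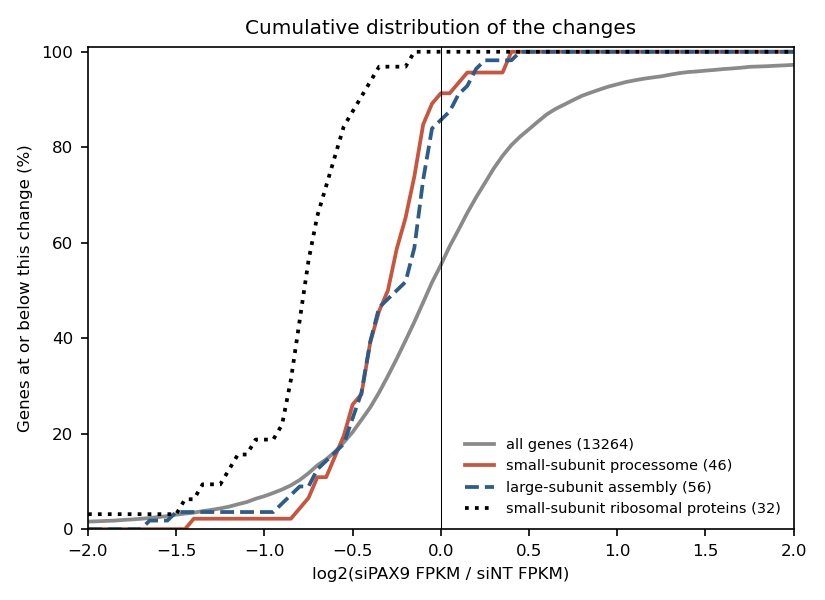
Cumulative percent of genes (y axis) at or below each log2 change of siPAX9 over siNT FPKM (x axis), for the 46 small-subunit processome and 18S rRNA processing genes, 56 large-subunit assembly factors, 32 small-subunit ribosomal protein genes and all 13264 genes with a mean FPKM of at least 1. At 0 the processome curve has reached 91.3% and that of all genes 55.3%.

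NOB1 encodes the endonuclease that makes the last cut at the 3′ end of 18S rRNA in the cytoplasm. Its locus (chromosome 16, 69775757 to 69788871 on UCSC hg19) had 87.7 FPKM in siNT and 32.1 FPKM in siPAX9, 2.73-fold lower, with a log2 change of -1.45. In siNT it was the 2nd most abundant of the 46 mRNAs and in siPAX9 the 4th. Of all genes, 3.24% had a lower log2 change than NOB1. The gene next in order, UTP14A, had a log2 change of -0.80, and this gap was wider than that between any other neighbours in the order of the 46 genes.

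The NOB1 promoter, from 250 bases before to 50 bases after the transcription start in RefSeq on GRCh38.p14 (chr16:69754877-69755176, minus strand), is shown because NOB1 had the lowest log2 change. Beside it stands that of UTP3 (chr4:70688282-70688581, plus strand), the gene with the highest log2 change. The promoter of UTP18 (chr17:51260296-51260595, plus strand), a UTP-B subunit that was 33.7% lower, is the only one of the 41 promoters that holds each of 4 short motifs searched, which are described further on. Sequences run 5′ to 3′ along the gene, and capitals mark every match to one of the motifs on either strand.
NOB1: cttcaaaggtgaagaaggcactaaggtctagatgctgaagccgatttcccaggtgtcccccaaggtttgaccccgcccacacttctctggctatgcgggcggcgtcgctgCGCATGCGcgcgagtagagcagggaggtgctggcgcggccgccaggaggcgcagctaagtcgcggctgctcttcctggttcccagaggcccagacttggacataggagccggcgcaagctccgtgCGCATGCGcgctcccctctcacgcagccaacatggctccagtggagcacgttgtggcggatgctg
UTP3: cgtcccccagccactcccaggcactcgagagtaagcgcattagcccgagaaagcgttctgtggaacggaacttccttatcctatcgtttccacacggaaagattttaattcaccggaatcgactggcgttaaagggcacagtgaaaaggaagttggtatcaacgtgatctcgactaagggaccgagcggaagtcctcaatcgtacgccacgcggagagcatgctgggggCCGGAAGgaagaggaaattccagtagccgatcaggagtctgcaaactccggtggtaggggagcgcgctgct
UTP18: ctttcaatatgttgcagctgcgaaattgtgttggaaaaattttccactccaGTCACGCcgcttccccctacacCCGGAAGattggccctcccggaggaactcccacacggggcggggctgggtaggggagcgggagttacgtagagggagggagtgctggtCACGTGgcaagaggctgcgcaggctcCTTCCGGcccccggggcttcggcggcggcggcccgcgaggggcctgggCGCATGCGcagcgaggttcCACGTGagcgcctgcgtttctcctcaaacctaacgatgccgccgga
The capitals in NOB1 are 2 copies of the NRF1 core, at 140 and 15 bases before the start, and those in UTP3 are 1 copy of the ETS core, 21 bases before the start. UTP18 was shown after its matches were seen.

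The levels of the 46 genes in each group are shown in the plot of FPKM by gene. In siNT they lay between 4.98 FPKM (UTP15) and 97.9 FPKM (DDX52) with a median of 19.1 FPKM, and 33 of the 46 lay between 10 and 30 FPKM. In siPAX9 they lay between 5.23 and 79.8 FPKM with a median of 14.0 FPKM. The order of the genes was largely kept, with a Spearman rho of 0.91 between the groups across the 46 genes. Across the same genes, the log2 change had a rho of -0.36 with the mean FPKM, -0.32 with the number of exons and 0.14 with the length of the canonical transcript in GENCODE. These correlations describe genes measured in the same libraries, which are not independent replicates.

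**Figure D2:**
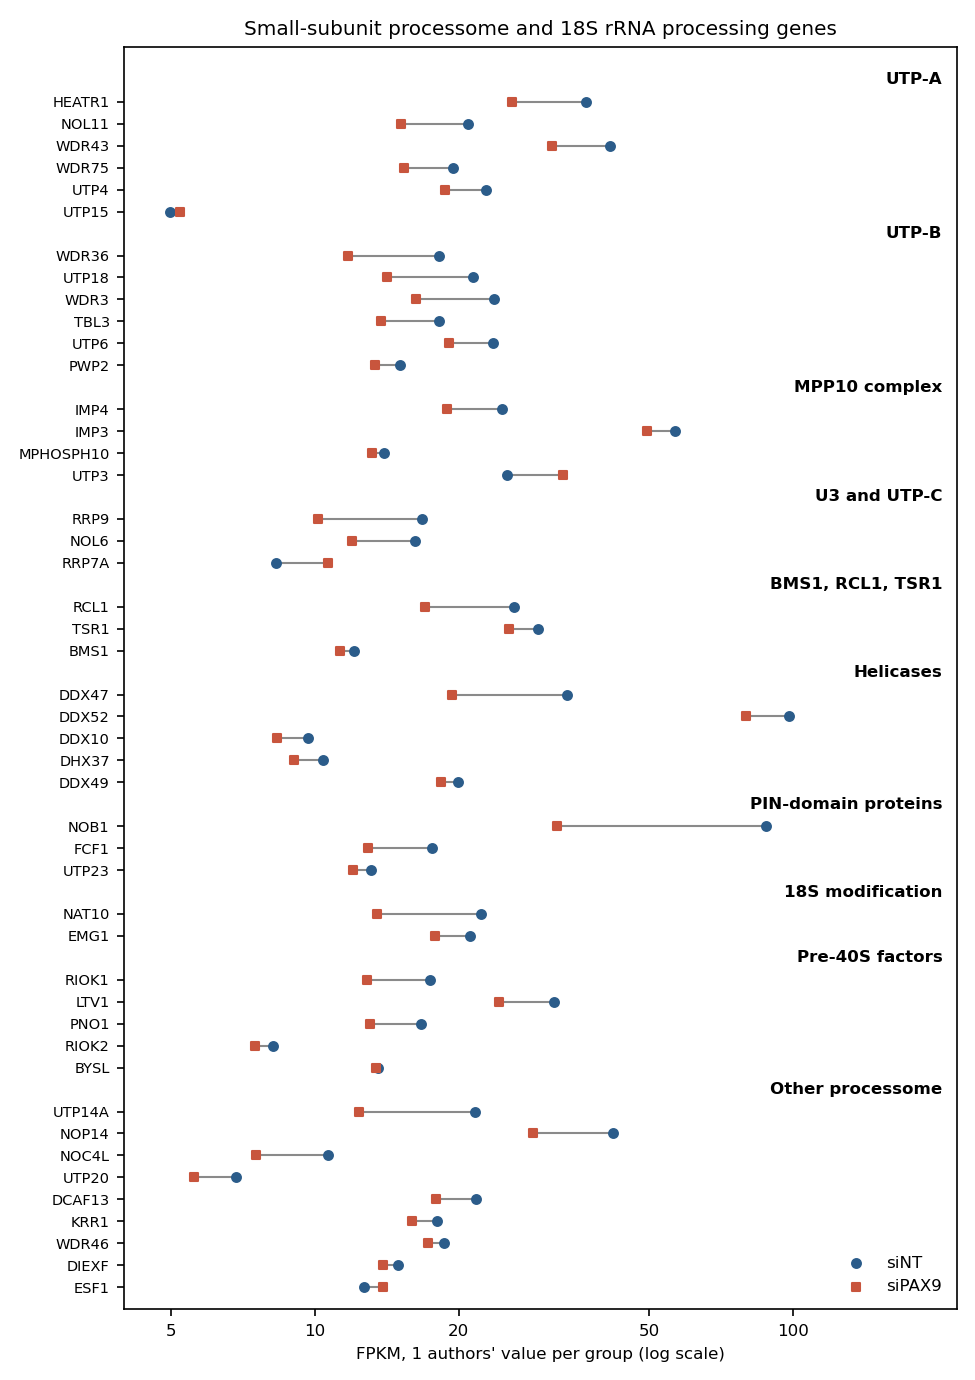
FPKM (x axis, log scale) of each of the 46 genes in siNT (blue circles) and siPAX9 (red squares), 1 authors' value per group, grouped by role. In 42 genes the siPAX9 value lies to the left of the siNT value, and the longest line is that of NOB1, from 87.7 to 32.1 FPKM.

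UTP-A is the subcomplex that loads first on the 5′ external transcribed spacer, and several of its subunits are also needed for transcription of the ribosomal DNA. Of its 6 genes, 5 were lower (83.3%, against 55.3% of all genes) and the median log2 change was -0.37. HEATR1, the largest subunit, was at 36.8 FPKM in siNT and 25.9 FPKM in siPAX9 (log2 change -0.51). NOL11, a subunit known for its part in both rDNA transcription and 18S processing, was at 20.9 and 15.2 FPKM (-0.46). The WD-repeat proteins WDR43 and WDR75 were at 41.4 and 31.3 FPKM (-0.41) and at 19.5 and 15.4 FPKM (-0.34). UTP4, also called cirhin, was at 22.9 and 18.7 FPKM (-0.29). UTP15 was the exception and the least abundant of the 46, at 4.98 and 5.23 FPKM (0.07).

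UTP-B is the 2nd scaffold complex to join and is built mainly of tandem WD-repeat proteins. All 6 of its genes were lower, against 55.3% of all genes, with a median log2 change of -0.47. WDR36 was at 18.2 FPKM in siNT and 11.7 FPKM in siPAX9 (log2 change -0.63), and UTP18 was at 21.4 and 14.2 FPKM (-0.59). These were the only UTP-B genes past 1.5-fold, 33.3% of the 6 against 16.7% of all genes. WDR3 was at 23.7 and 16.2 FPKM (-0.54), and UTP6, a subunit with HAT repeats, at 23.5 and 19.1 FPKM (-0.30). PWP2 had the smallest change, at 15.1 and 13.3 FPKM (-0.18). TBL3 was at 18.2 and 13.8 FPKM (-0.40), but its locus also carries the symbol GFER, and reads of the 2 genes were not told apart there.

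U3 small nucleolar RNA pairs with the pre-rRNA, and the MPP10 complex helps this pairing form. The median log2 change of its 4 genes was -0.14, the closest to 0 of the 10 role groups. IMP4 was at 24.6 FPKM in siNT and 18.9 FPKM in siPAX9 (log2 change -0.38), and IMP3, its partner in U3 pairing, was at 56.6 and 49.5 FPKM (-0.19). MPHOSPH10, the scaffold protein, was at 14.0 and 13.2 FPKM (-0.08). UTP3, also known as SAS10, was higher in siPAX9, at 25.2 FPKM in siNT and 33.1 FPKM in siPAX9 (0.39), which is 31.1% above siNT and the highest log2 change of the 46 genes. UTP3 and IMP3 were the only 2 of the 46 whose canonical transcript in GENCODE has a single exon.

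RRP9 is the protein that marks the U3 particle among box C/D particles. It was 39.5% lower, at 16.8 FPKM in siNT and 10.2 FPKM in siPAX9 (log2 change -0.72). Of the UTP-C subunits, NOL6 was lower, at 16.2 and 12.0 FPKM (-0.44). RRP7A was higher, at 8.31 and 10.7 FPKM (0.36). RRP7BP, a near-identical copy of RRP7A on chromosome 22, was at 4.17 and 5.31 FPKM, so the split of reads between the 2 copies is uncertain.

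BMS1 is the GTPase of the particle, and RCL1, a protein related to RNA cyclases, is its partner. RCL1 was 34.9% lower, at 26.1 FPKM in siNT and 17.0 FPKM in siPAX9 (log2 change -0.62). BMS1 differed little, at 12.1 and 11.3 FPKM (-0.10). Several BMS1 pseudogene loci with up to 12.2 FPKM in siNT are in the table, so the BMS1 level is uncertain. TSR1, a relative of BMS1 that stays on the pre-40S particle, was at 29.4 and 25.5 FPKM (-0.21).

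All 5 helicase genes were lower, against 55.3% of all genes, with a median log2 change of -0.21. Of them, 1 (20%) passed 1.5-fold, close to the 16.7% of all genes. DDX47 was at 33.7 FPKM in siNT and 19.4 FPKM in siPAX9, 42.4% lower (log2 change -0.80). The other DEAD-box genes DDX10 and DDX49 were at 9.69 and 8.35 FPKM (-0.21) and at 20.0 and 18.4 FPKM (-0.12). DHX37, the DEAH-box helicase that releases U3 from the pre-rRNA, was at 10.4 and 9.06 FPKM (-0.20). DDX52 was at 97.9 and 79.8 FPKM (-0.30), the highest level of the 46 genes in both groups, at a locus that also carries the symbol MIR378J.

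UTP14A is known to bind DHX37 and stimulate it. It had the 2nd lowest log2 change of the 46 genes, at 21.6 FPKM in siNT and 12.4 FPKM in siPAX9, 42.7% lower (log2 change -0.80). UTP14C, an intronless copy of UTP14A within the ALG11 locus, was at 16.7 and 17.2 FPKM there (0.04).

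NOB1, FCF1 and UTP23 share the PIN domain, a nuclease fold. FCF1, the homologue of yeast UTP24 that cuts at the 5′ end of 18S rRNA, was at 17.6 FPKM in siNT and 12.9 FPKM in siPAX9 (log2 change -0.45). UTP23 was at 13.1 and 12.0 FPKM (-0.13). The range from -0.13 to -1.45 was the widest of the 10 role groups.

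Both modification enzymes among the 46 genes were lower, against 55.3% of all genes. NAT10, which acetylates cytidines of 18S rRNA, was 39.3% lower, at 22.3 FPKM in siNT and 13.5 FPKM in siPAX9 (log2 change -0.72). EMG1, which methylates a pseudouridine, was at 21.1 and 17.8 FPKM (-0.24).

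The late factors that ride on the pre-40S particle had smaller differences than NOB1, their nuclease. All 5 were lower, against 55.3% of all genes, by up to 26.0% and with a median log2 change of -0.36. The atypical kinases RIOK1 and RIOK2 were at 17.4 and 12.9 FPKM (-0.43) and at 8.18 and 7.51 FPKM (-0.12). LTV1, which leaves the particle on phosphorylation, was at 31.7 and 24.2 FPKM (-0.39). PNO1, the direct partner of NOB1 on the 3′ end of 18S rRNA, was at 16.7 and 13.0 FPKM (-0.36). BYSL was at 13.5 and 13.4 FPKM (-0.01), the log2 change closest to 0 of the 46 genes, and it lay above the median of all genes by 0.06 on the log2 scale.

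The remaining processome factors included NOP14 and NOC4L, which form a complex. NOP14 was at 42.1 FPKM in siNT and 28.6 FPKM in siPAX9 (log2 change -0.55), and NOC4L at 10.7 and 7.55 FPKM (-0.50), so the log2 changes of this pair lay close together. UTP20, a very long repeat protein of the particle, was at 6.84 and 5.59 FPKM (-0.29), and DCAF13 was at 21.8 and 17.9 FPKM (-0.28). KRR1, an RNA-binding KH-domain protein, was at 18.1 and 15.95 FPKM (-0.18). WDR46, another WD-repeat protein, was at 18.7 and 17.3 FPKM (-0.11), and DIEXF, the human Def protein, at 14.9 and 13.9 FPKM (-0.10). ESF1 was at 12.7 and 13.9 FPKM (0.14), one of the 4 genes that were higher.

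**Figure D3:**
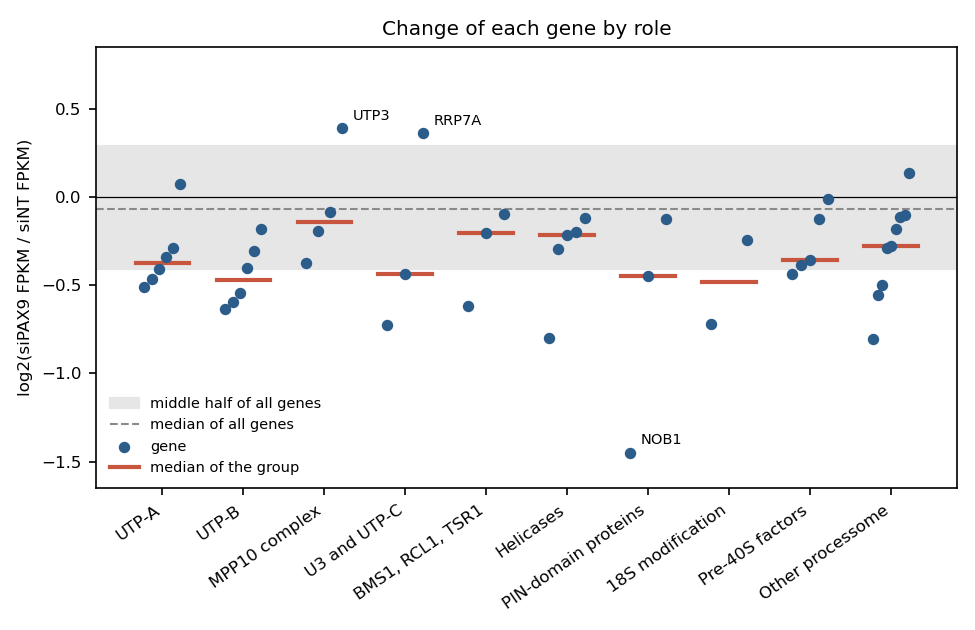
Log2 of siPAX9 over siNT FPKM (y axis) for each of the 46 genes (points) by role (x axis), with the median of each role group (red lines) and the median and quartiles of all 13264 genes (dashed line and grey band, which spans the quartiles). Each of the 10 group medians lies below the median of all genes of -0.07, and NOB1 at -1.45 stands below the other points.

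Loci of 8 of the 46 genes overlapped another locus with a mean FPKM of at least 1, among them HEATR1 with LGALS8, EMG1 with LPCAT3 and NOP14 with its antisense NOP14-AS1. Whether reads were counted by strand is not given in the sources used here, so overlapping genes may share reads. With only the 44 genes whose locus carries 1 symbol, 40 were lower and the median was still -0.30.

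Other genes that act on the small subunit, from a list written by hand, were also mostly lower. Of 27 found, 23 were lower (85.2%, against 55.3% of all genes), with a median log2 change of -0.22. None of the 27 was at least 2-fold lower or higher, against 6.90% and 6.82% of all genes. The 3 with the lowest log2 changes were TRMT112, an activator of 18S methylation (64.9 FPKM in siNT and 35.1 FPKM in siPAX9, -0.89), ABT1 (13.3 and 7.55 FPKM, -0.82) and CSNK2B, the regulatory subunit of casein kinase 2 (71.3 and 49.5 FPKM, -0.53). RIOK3, a further atypical kinase of the pre-40S particle, had the highest log2 change, at 23.9 and 37.2 FPKM (0.64).

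The closest neighbours in the pathway were set beside the processome genes, with no test of the differences. The 56 large-subunit assembly factors had a median log2 change of -0.25, with 48 of 56 lower (85.7%). Of them, 2 (3.57%) were at least 2-fold lower and 9 (16.1%) at least 1.5-fold lower. Over all genes, 55.3% were lower, 6.90% at least 2-fold lower and 16.7% at least 1.5-fold lower. The lowest of the 56 were RSL24D1 at -1.67, NLE1 at -1.53 and PES1 at -0.94, and the highest was FTSJ3 at 0.43. Among the 21 genes of RNA polymerase I and its factors, 19 were lower and the median was -0.35, from ZNRD1 at -1.38, TCOF1 at -0.91 and TAF1D at -0.88 up to TBP at 0.07. The 7 core genes of the small nucleolar ribonucleoproteins were all lower, with a median of -0.53, and FBL, the methyltransferase fibrillarin, had a log2 change of -1.44, close to that of NOB1. NHP2 and DKC1 of the pseudouridylation particle were at -0.69 and -0.62, and NOP10 was the highest at -0.23.

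The ribosomal proteins of the small subunit, which the processome builds onto the RNA, had larger differences. All 32 were lower, against 55.3% of all genes, with a median log2 change of -0.77. At least 1.5-fold lower were 25 of 32 (78.1%), against 8 of the 46 processome genes and 16.7% of all genes. The lowest were RPS28 at -3.98, RPS9 at -1.45 and RPS2 at -1.37, and the highest was RPS19 at -0.17. The RPS28 row also has the coordinates of a locus longer than the gene (chromosome 19, 8386384 to 8408146), where KANK3 has a row of its own. In FPKM the 2 groups differ widely, with a median of 935 FPKM for the ribosomal proteins and 19.1 FPKM for the processome genes in siNT. Ribosomal protein genes have many processed copies in the genome, so reads split among copies could alter these values.

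A few genes of proliferating cells, picked by hand with earlier results known, were looked at beside these. All 6 were lower, against 55.3% of all genes, with log2 changes from -2.41 (TOP2A) to -0.92 (PCNA), and 5 of 6 were at least 2-fold lower, against 6.90% of all genes. MKI67 was at 18.4 FPKM in siNT and 6.21 FPKM in siPAX9 (log2 change -1.57), MCM2 at 16.7 and 5.67 FPKM (-1.56) and PCNA at 53.2 and 28.0 FPKM (-0.92). MYC, a transcription factor known to drive genes of ribosome production, was at 394 FPKM in siNT and 248 FPKM in siPAX9 (-0.67). The part of proliferation or of MYC in the changes of the processome genes was not tested. In bulk RNA, fewer cells with a transcript and less of it per cell cannot be told apart.

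The promoters were then searched for short motifs, since most of the genes were lower together. RefSeq promoters of 300 bases on GRCh38.p14 were found for 41 of the 46 genes; MPHOSPH10, DDX49, DDX52, UTP23 and DCAF13 were without one. The 4 motifs were the E-box CACGTG, which MYC and related factors bind, the ETS core CCGGAAG, the NRF1 core CGCATGCG and GCGTGAC, the letters shared by several PAX9 binding sequences. Exact matches on both strands were counted, and no 2 motifs overlapped in the 41 promoters.

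The E-box was found in 19 of the 41 promoters (46.3%), against 10.3% of 9480 promoters of genes with a mean FPKM of at least 1 and 7.43% of all 27305 promoters. Of the 21 matches, 14 began at or after the transcription start, and 3 lay far before it, at positions -241 (the only match of UTP14A), -203 (IMP4) and -89 (UTP18) relative to the start. In 14 of the 41 promoters (34.1%) an E-box lay at or after the start, against 1.22% of the 9480. This placement was also seen in 7 of 49 promoters of large-subunit assembly factors (14.3%) and 1 of 6 of the small nucleolar ribonucleoprotein genes (16.7%). It was seen in 0 promoters of the other small-subunit factors, the small-subunit ribosomal proteins and the RNA polymerase I genes. Each role group held at least 1 promoter with an E-box, except the PIN-domain proteins, of which the NOB1 and FCF1 promoters were read. The site closest to the start in each of the 9 groups is printed here, with up to 10 bases on each side and the E-box in capitals, ordered by where it lies relative to the start.
NAT10 (chr11:34105604-34105629, plus strand): tgcgcttgcgCACGTGctgtctacca
UTP20 (chr12:101280085-101280110, plus strand): tttttccgtcCACGTGacccactcag
RRP9 (chr3:51941894-51941919, minus strand): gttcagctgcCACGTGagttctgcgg
PWP2 (chr21:44107390-44107415, plus strand): agctgcggcaCACGTGcgacggccgt
WDR43 (chr2:28894660-28894685, plus strand): cacggacgaaCACGTGgctgcagcgg
RCL1 (chr9:4792938-4792963, plus strand): tgttccaaacCACGTGgacgcgtctg
PNO1 (chr2:68157887-68157912, plus strand): tgcagctgcgCACGTGtttcagccgg
IMP4 (chr2:130342902-130342927, plus strand): ctcccggaccCACGTGgaagcggcac
DHX37 (chr12:124989082-124989100, minus strand): tctgggaaccCACGTGggc
The E-box began 15 bases before the start in NAT10, 10 before it in UTP20 and 5 before it in RRP9. It began 1 base after the start in PWP2, 3 after it in WDR43, 4 in RCL1, 9 in PNO1, 15 in IMP4 and 41 in DHX37.

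**Figure D4:**
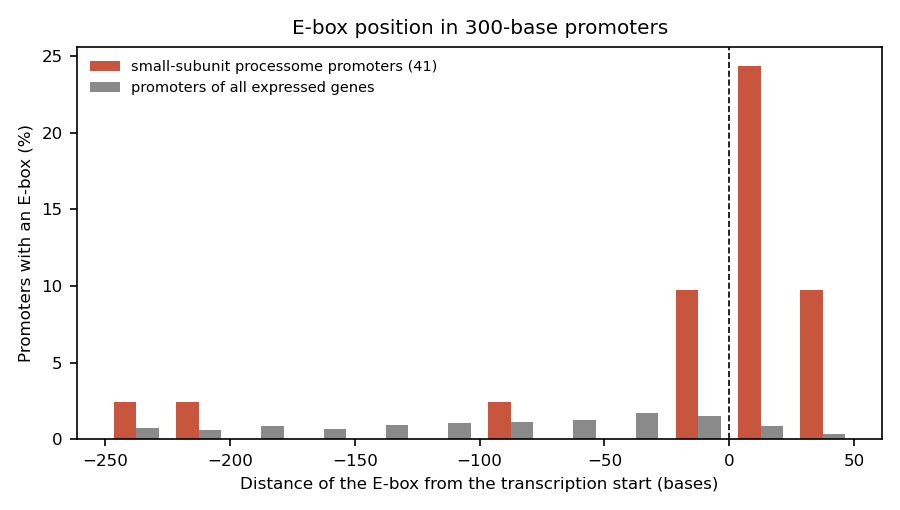
Percent of promoters (y axis) with an E-box that begins in each 25-base bin of distance from the transcription start (x axis, dashed line at the start), for the 41 small-subunit processome promoters (red) and the 9480 promoters of all genes with a mean FPKM of at least 1 (grey). The highest red bar, at 0 to 24 bases, stands for 10 promoters or 24.4%, against 0.876% of all expressed genes.

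The E-box was also frequent in other genes of ribosome assembly. It was in 14 of 49 promoters of large-subunit assembly factors (28.6%) and in 6 of 24 of the other small-subunit factors (25%), but in 1 of 25 promoters of small-subunit ribosomal proteins (4%) and 1 of 18 of the RNA polymerase I genes (5.56%). Whether genes with an E-box had the lower median log2 change varied between lists. The 19 genes with an E-box had a median log2 change of -0.38, with 18 of 19 lower, and the 22 without had a median of -0.32, with 19 of 22 lower. Over the 9480 expressed genes the medians were -0.10 with an E-box and -0.07 without. The medians were -0.39 with and -0.18 without among the large-subunit assembly factors, and -0.83 with (2 genes) and -0.58 without (4 genes) among the small nucleolar ribonucleoprotein genes. The 1 ribosomal protein gene with an E-box was at -3.98, against a median of -0.76 without. The 1 RNA polymerase I gene with an E-box was at -0.41, against a median of -0.24 without. Among the other small-subunit factors the order was the opposite, with -0.08 with an E-box and -0.25 without.

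The ETS core was in 16 of the 41 promoters (39.0%), against 20.0% of the 9480. It was also frequent in the other lists, in 13 of 24 promoters of the other small-subunit factors (54.2%), 23 of 49 of the large-subunit assembly factors (46.9%), 3 of 6 of the small nucleolar ribonucleoprotein genes (50%), 8 of 18 of the RNA polymerase I genes (44.4%) and 9 of 25 of the small-subunit ribosomal proteins (36%). The NRF1 core was in 4 (9.76%), among them NOB1 with 2 copies, against 3.96%. This motif was chosen after the NOB1 promoter was seen, so that choice raised the 9.76%, and no enrichment can be read from it. The NRF1 core was also in 3 of 24 promoters of the other small-subunit factors and 1 of 6 of the small nucleolar ribonucleoprotein genes. It was in 1 of 49 of the large-subunit assembly factors, 1 of 18 of the RNA polymerase I genes and 0 of 25 of the small-subunit ribosomal proteins. GCGTGAC was in 4 of the 41 promoters (9.76%), WDR36, UTP18, IMP3 and ESF1, against 4.05%, and 3 of these 4 genes were lower. NOB1 held neither the E-box nor GCGTGAC in this window. A match is only a run of letters in the reference sequence, and no binding was measured in these data.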

How the data were processed

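RNA-seq of poly(A)+ RNA was made from 6 samples of MCF10A cells, 3 siNT and 3 siPAX9. Per the study's methods and the submitters' processing notes, the authors aligned single-end reads to UCSC hg19 with Bowtie2 and quantified them with Cufflinks within Partek Flow. Bowtie2 does not split reads across exon junctions, which can lower the values of genes with many short exons. The deposited table gives 1 FPKM per locus and group, combined by the authors over 3 samples. How the libraries were scaled against each other is not given in the sources used here. The table also holds the authors' log2 fold changes, test statistics, p-values and q-values, which were not used. It holds no counts and no values per sample, so the depth behind a value is unknown, and no error, interval between samples or test could be computed from the FPKM values. Samples sharing a group were taken as the labels name them.

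Rows were read by exact symbol, and for a symbol at several loci (WDR46, 5 rows) the row with the highest mean FPKM of the 2 groups was kept. Genes with a mean FPKM of at least 1 made up the background. Locus starts, counted from 0 in the table, were raised by 1. All 46 loci overlapped their gene in GENCODE release 44 on GRCh37, which has the coordinates of hg19. Fold thresholds of 2, the one in the study's methods, and 1.5 were used. Promoter sequences came from RefSeq on GRCh38.p14, a build other than that of the loci, and no coordinates were converted between the builds. The gene lists and members were chosen with earlier results of these data known, and the motifs after the values were seen, the NRF1 core after the NOB1 promoter was seen. Every member could be named, and of each other list of the pathway the 3 genes with the lowest and the 1 with the highest log2 change. UTP11, SNU13, NOP56, NOP58, NQO1, WWP2 and the gene copies fall outside this rule and were chosen after their values were seen. The calculations and the motif search were tested on simulated data. Python 3.11.15, numpy 2.4.6, pandas 2.3.3, scipy 1.17.1 and matplotlib 3.10.9 were used. Alternatives were 1 added to each FPKM, centring, other filters, other fold thresholds, summed rows and loci with 1 symbol.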

Additional observations from a re-analysis of the deposited data

How the results depend on the processing

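The main counts and shares kept their size under most settings tried. Between 89.1 and 91.5% of the processome genes were lower when 1 was added to each FPKM, log2 changes were centred on the median of all genes, the filter was dropped or raised to a mean FPKM of 5, rows were summed, only loci with 1 symbol were kept, or UTP11 was counted for UTP11L, a setting added after the table was seen. The median log2 change of -0.30 became -0.29 with 1 added to each FPKM and -0.23 after centring. The count of genes at least 2-fold lower, 1 in each of these settings, was 8 at a fold threshold of 1.5 and 0 at a threshold of 4. BYSL, at -0.01, went to 0.0603 after centring. Leaving out single replicates was not run, since the table has no values per sample. No paired analysis was possible because the authors' columns hold 1 pooled value per group and carry no replicate numbers. The FPKM values carry no error, and the authors' test columns were not used, so small changes such as those of BYSL, UTP15 and MPHOSPH10 were not set against the spread between samples.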

Other observations

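UTP11, the newer symbol of UTP11L, was in the table and was looked up after the values were seen. This processome factor was at 20.2 FPKM in siNT and 13.4 FPKM in siPAX9 (log2 change -0.59), just past the 1.5-fold decrease. SNU13, the protein of the U3 particle that binds its kink-turn, was missing from the list under its older symbol NHP2L1. It was at 128 FPKM in siNT and 81.3 FPKM in siPAX9 (-0.65), and thus 1.57-fold lower. Of the other U3 proteins, RRP9 and FBL were also past 1.5-fold, while NOP56 was 1.31-fold and NOP58 1.40-fold lower.

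The loci on both sides of NOB1 on chromosome 16 were looked up after the values were seen. NQO1, a quinone reductase and the named gene before it, was at 33.3 FPKM in siNT and 42.2 FPKM in siPAX9 (log2 change 0.34). WWP2, a ubiquitin ligase and the named gene after it, was at 8.11 and 7.28 FPKM (-0.15). Between NOB1 and WWP2 the table lists 2 loci with no gene symbol, at 33.8 and 18.4 FPKM (-0.88) and at 80.9 and 48.3 FPKM (-0.74). Both lie on the side of the NOB1 start. UTP4, which lies on the same chromosome (69166499 to 69202937 on UCSC hg19), had a log2 change of -0.29.

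Copies of the processome genes in the table did not all follow their parents. RRP7BP (0.35) was close to RRP7A (0.36) and DCAF13P3 (-0.18) to DCAF13 (-0.28). FCF1P2 (-0.39) was close to FCF1 (-0.45), but its locus also carries the symbol NME6, so that value is not of the copy alone. The BMS1 copies with a mean FPKM of at least 1 were each higher in siPAX9, with log2 changes from 0.14 (BMS1P4) to 1.30 (a locus with the symbols BMS1P18 and BMS1P22). The locus of BMS1P6 (0.59) also carries the symbol AGAP9. BMS1P20, the most abundant of the BMS1 copies, was higher in siPAX9, at 12.2 FPKM in siNT and 15.1 FPKM in siPAX9 (0.31), where BMS1 was slightly lower (-0.10).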
